A study of Mus musculus with 48 samples.

Results

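The genes described here are the receptor of thyrotropin-releasing hormone, Trhr, and 3 transcription factors of pituitary thyrotrophs, Gata2, Pitx1 and Lhx3. These 4 members were taken from a list of names, out of 18193 genes measured on the arrays. Each is represented by the probe set, a group of short oligonucleotides read as 1 value, that had the highest mean over all 48 arrays among probe sets annotated with 1 symbol. All values are log2 levels, so a difference of 1 is a doubling. The levels of different genes cannot be set against each other, because probe sets differ in brightness.

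The tissue was the pars tuberalis, the sheath of the pituitary around its stalk, punched from frozen brain slices of male CBA/N mice after at least 3 weeks in short days of 8 h of light and 16 h of dark. Long-day mice had then spent 2 weeks in 16 h of light and 8 h of dark. Advance and delay mice were taken on their first long day, with lights on 8 h early (ZT16 of the short-day cycle) in advance and lights off 8 h late (ZT16) in delay. Short-day mice stayed in short days. ZT is the number of hours since lights-on, and advance and delay keep the ZT of the short-day cycle that preceded them. Mice were 8 weeks old in long and short days and 6 weeks old in advance and delay. Each of the 4 conditions was sampled at 6 times 4 h apart with 2 arrays a time, each array holding a pool of 25 mice. Nothing in the array labels says that the 2 pools of a group came from separately housed sets, so the p-values measure the spread between these arrays. The number of arrays limits the precision.

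Thyrotrophs make thyrotropin from a common alpha subunit, Cga, and a beta subunit, Tshb. In the anterior pituitary, hypothalamic thyrotropin-releasing hormone binds its receptor, which signals through Gq proteins, and Pitx1 and Lhx3 are homeodomain factors of early pituitary development while Gata2, a zinc finger factor, acts with Pou1f1 on the Tshb promoter. Pars tuberalis thyrotrophs differ from these: they read the night through melatonin receptors and signal to the hypothalamus rather than to the thyroid. Gata2 is also a gene of endothelial and blood cells. Pou1f1 was not analysed here.

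The tissue label was checked against its markers. The probe set of Cga stood at the 99.8th percentile of all probe sets by mean level and that of Tshb at the 98.1th. Other pars tuberalis markers were less bright, with mean levels of 9.50 for Eya3 and 8.42 for Mtnr1a. The mean of 14 hypothalamic neuron markers per array had a median of 10.54 in long days, against 10.52 in short days. It was 10.17 in advance and 10.27 in delay. For 8 tanycyte markers these medians lay between 10.99 and 11.05. How much hypothalamic tissue the punches held was not measured. Median levels of whole arrays lay between 6.98 and 7.03. Gh or Prl, hormones of the neighbouring pars distalis, exceeded a log2 level of 10 in 6 arrays, 3 of long days and 1 of each other condition. The actin probe set near the 3′ end exceeded the one near the 5′ end, a sign of RNA quality, by 1.65 ± 0.12 in long days, 1.69 ± 0.09 in advance and 1.85 ± 0.13 in delay, against 1.89 ± 0.12 in short days (SD, 12 arrays each). In pooled tissue, fewer cells of a type and less RNA per cell cannot be told apart.

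By RefSeq's annotation of GRCm38.p6, Trhr lies at chr15:44195924-44235912, Gata2 at chr6:88193891-88207032, Pitx1 at chr13:55825044-55836190 and Lhx3 at chr2:26200212-26208249. RefSeq promoter sequences were matched for 2 of the 4 members, each with 2 start sites. These were Gata2 and Lhx3, and the 250 bases upstream of both Gata2 starts and of the outer Lhx3 start are shown. Capitals mark the GC box (GGGCGG on either strand). The window of the inner Lhx3 start, not shown, held 3 GC boxes at a GC content of 70.8%.
Gata2, chr6:88193641-88193890, plus strand: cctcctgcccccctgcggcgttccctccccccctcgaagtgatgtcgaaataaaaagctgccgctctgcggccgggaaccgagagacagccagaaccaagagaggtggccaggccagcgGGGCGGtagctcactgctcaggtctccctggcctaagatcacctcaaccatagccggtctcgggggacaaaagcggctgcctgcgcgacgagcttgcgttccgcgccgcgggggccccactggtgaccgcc
Gata2, chr6:88198414-88198663, plus strand: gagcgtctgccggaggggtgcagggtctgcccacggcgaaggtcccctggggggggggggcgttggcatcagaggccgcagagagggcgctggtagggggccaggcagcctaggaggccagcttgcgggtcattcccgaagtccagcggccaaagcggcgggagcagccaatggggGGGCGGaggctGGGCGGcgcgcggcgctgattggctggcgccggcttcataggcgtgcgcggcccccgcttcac
Lhx3, chr2:26208250-26208499, minus strand: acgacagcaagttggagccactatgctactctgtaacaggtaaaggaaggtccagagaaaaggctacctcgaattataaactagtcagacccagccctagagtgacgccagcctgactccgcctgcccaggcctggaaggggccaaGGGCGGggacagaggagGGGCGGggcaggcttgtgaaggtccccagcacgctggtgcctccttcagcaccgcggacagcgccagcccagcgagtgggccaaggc
These windows held 1, 2 and 2 GC boxes, and 32.7% of all 32851 RefSeq promoter windows of that length hold at least 1. Their GC content was 67.2%, 74.0% and 62.0%, against a median of 52.4% over all windows. On either strand, they held no E-box (CACGTG, found in 6.02% of windows), cAMP response element (TGACGTCA, 1.55%), D-box (TTATGTAA or TTACGTAA, 0.931%), GATA motif (AGATAA, 9.99%) or homeobox motif TAATCC (6.25%). Absence from these windows says only that the letters are not there.

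The first question was how the members differed after 2 weeks of long days. Trhr was higher in long days at every time of day, Pitx1 was higher at ZT8 and ZT12, Lhx3 was lower at ZT20, ZT0 and ZT4, and Gata2 differed in opposite directions at ZT8 and ZT20. Over the day, 4 of 4 members passed an adjusted p of 0.05 in limma, 3 higher and 1 lower. Of all 18193 genes, 46.7% passed, 17.6% upward and 29.1% downward, so passing is not particular to these genes.

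Trhr, the hormone receptor, had a lowest, median and highest level of 8.87, 9.11 and 9.54 over the 12 long-day arrays, against 7.94, 8.28 and 8.79 over the 12 short-day arrays. The arrays did not overlap, which 2.07% of all genes showed in the upward direction. The day mean was 9.12 ± 0.18 in long days and 8.31 ± 0.23 in short days (SD, 12 arrays each), 1.76-fold higher (log2 change 0.81 ± 0.05 SE, limma adjusted p = 5.33e-14). The change at single times ran from 0.46 at ZT12 to 1.16 at ZT8 and passed at all 6. The share of all genes that passed was 20% at ZT0, 22.2% at ZT4, 16.2% at ZT8, 5.45% at ZT12, 16.1% at ZT16 and 19.6% at ZT20. At ZT0 the call was lost without long-day ZT0 replicate 2 (adjusted p = 0.0627), and at ZT12 without short-day ZT12 replicate 1 (adjusted p = 0.34) or long-day ZT12 replicate 2 (adjusted p = 0.406). Without the 6 arrays rich in Gh or Prl the change over the day was 0.74 (limma adjusted p = 1.59e-10), while at ZT12 it was 0.21 (adjusted p = 0.741).

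A second Trhr probe set was dim, with a mean of 4.55 at the 12.3th percentile of all probe sets. Its change over the day was 0.16 ± 0.05 (adjusted p = 0.00357 over all probe sets with 1 symbol). At single times it gave 0.0014 at ZT0, -0.065 at ZT12 and -0.0086 at ZT16 (adjusted p = 0.996, 0.845 and 0.969). The size of the Trhr difference, and its direction at these 3 times, therefore rest on 1 probe set.

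Pitx1, a homeodomain factor present across the cell types of the anterior pituitary, had 9.37, 9.68 and 10.47 as its lowest, median and highest level in long days, against 8.49, 9.18 and 9.51 in short days, so the arrays overlapped. Its day mean was 1.49-fold higher (9.70 ± 0.28 in long days and 9.13 ± 0.30 in short days, SD, 12 arrays each), a log2 change of 0.58 ± 0.08 SE (limma adjusted p = 1.08e-07). At ZT8 its levels were 10.47 and 9.78 in long days, against 8.49 and 9.08 in short days. That difference, 1.34 ± 0.19, and the one at ZT12, 0.98 ± 0.19, passed (limma adjusted p = 7.83e-06 and 0.0014). The other 4 times gave 0.19 to 0.38 and did not pass. The long-day ZT8 array at 10.47 was among those rich in Gh or Prl (Prl 10.46), and without it the ZT8 difference was 0.99. The short-day ZT8 array at 8.49 had the lowest Pitx1 level of the study. Each ZT12 group also held an array rich in Gh or Prl, with Prl at 12.24 in long days and 11.06 in short days. Without these, a single array was left in each group and the ZT12 difference was 1.05. A second probe set changed by 0.43 ± 0.08.

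Lhx3, a LIM homeodomain factor needed for most hormone cells of the pituitary, fell. Its lowest, median and highest levels were 7.31, 7.59 and 7.95 in long days, against 7.49, 7.96 and 8.31 in short days, with overlap. The day mean was 7.60 ± 0.19 in long days and 7.97 ± 0.25 in short days (SD, 12 arrays each), a log2 change of -0.36 ± 0.06 SE (limma adjusted p = 5.45e-06). At ZT20 the arrays stood at 7.42 and 7.39 in long days, against 8.00 and 8.28 in short days. The change passed at ZT20 (-0.74 ± 0.15), ZT4 (-0.59 ± 0.15) and ZT0 (-0.53 ± 0.15), and at ZT8 it was 0.17 ± 0.15 (adjusted p = 0.514). The ZT0 call was lost without replicate 2 of either condition (adjusted p = 0.36 without the long-day and 0.149 without the short-day array). The ZT4 call was lost without long-day replicate 2 (0.0647) or short-day replicate 1 (0.0734). The second Lhx3 probe set, at a mean of 5.35, gave -0.10 ± 0.05 and did not pass (adjusted p = 0.139). At ZT20, ZT0 and ZT4 it gave -0.032, -0.11 and -0.25 (limma adjusted p = 0.914, 0.639 and 0.191). The Lhx3 calls therefore rest on 1 probe set.

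The Gata2 difference between long and short days depended on the time of day and was small in the daily mean. At ZT20 Gata2 stood at 9.65 and 9.92 in long days, against 10.87 and 11.12 in short days, a change of -1.21 ± 0.13 (limma adjusted p = 1.57e-07). At ZT8 the order was opposite, with 10.31 and 10.15 in long days, against 9.06 and 9.63 in short days, and a change of 0.89 ± 0.13 (limma adjusted p = 2.64e-05). The changes at the other 4 times were 0.14 to 0.38 and did not pass. The day mean was 10.04 ± 0.21 in long days and 9.91 ± 0.56 in short days (SD, 12 arrays each). That change, 0.13 ± 0.05 (limma adjusted p = 0.0416), was lost when any of 16 of the 24 arrays was left out, with a highest adjusted p of 0.156 without short-day ZT8 replicate 1.

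**Figure D1:**
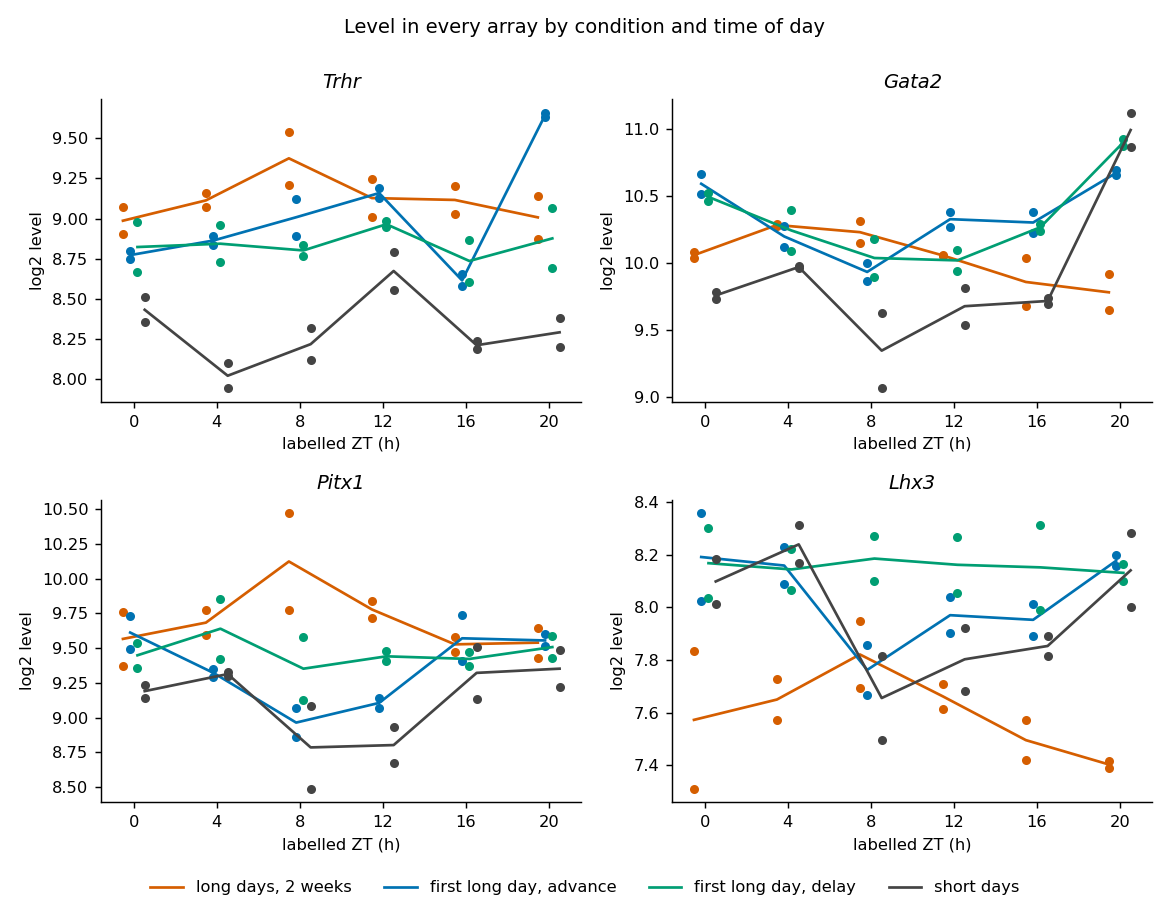
Log2 level of Trhr, Gata2, Pitx1 and Lhx3 (a panel each) against labelled ZT in hours, in long days, advance, delay and short days. Points are single arrays and lines join the means of 2. Trhr arrays of long days lie above those of short days at every time, and Gata2 at ZT20 lies between 10.65 and 11.12 in advance, delay and short days but at 9.65 and 9.92 in long days. Labelled ZT20 is 3 h by the clock in short days and 23 h in long days.

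**Figure D2:**
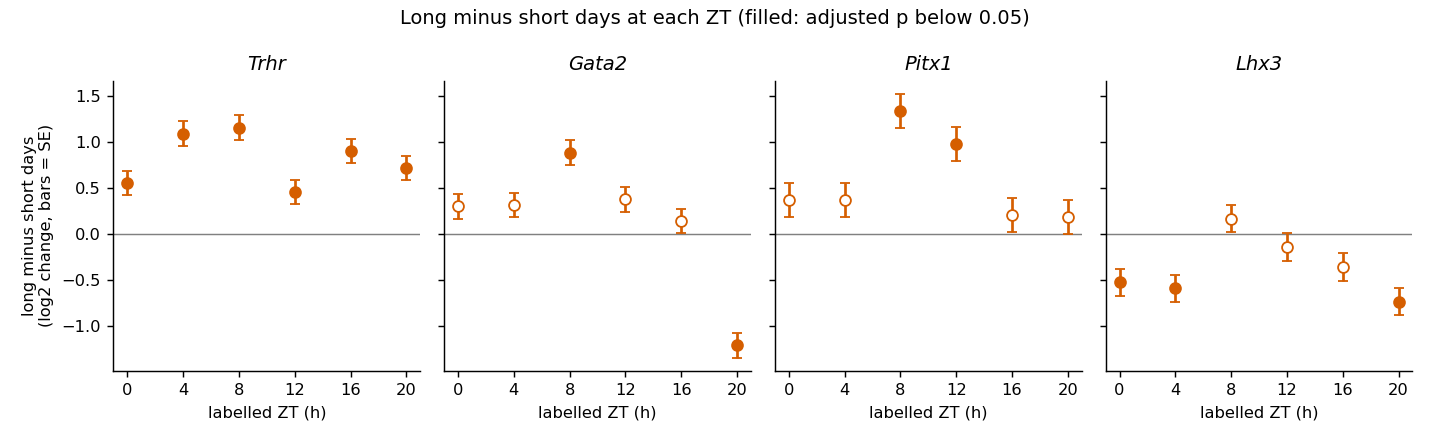
Long minus short days at each labelled ZT, as log2 change with SE, for the 4 members. Filled points had an adjusted p below 0.05. All 6 Trhr points are filled, while Gata2 is filled at 0.89 (ZT8) and at -1.21 (ZT20).

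Lights came on 4 h earlier by the clock in long days than in short days, so the same comparison was made at equal clock times, a matching added after the data had been seen. Trhr passed at 5 of 6 clock times, with changes of 0.68 to 1.36, and missed at 19 h with 0.44 (adjusted p = 0.0558). Gata2 was lower in long days at 3 h (-0.93 ± 0.13, adjusted p = 1.4e-05) and higher at 7 h (0.53) and 15 h (0.71). Pitx1 passed at 11, 15 and 19 h (0.72 to 0.99), and Lhx3 was lower at 3, 7, 11 and 23 h (-0.57 to -0.42). Gata2 at short-day ZT20 thus exceeded long days under both ways of counting time. Of all genes 13.4% passed at 3 h, 19.7% at 7 h, 24.5% at 11 h, 12.7% at 15 h, 3.16% at 19 h and 14.9% at 23 h.

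The next comparison was the course over the day within each condition. Under short days, 3 of 4 members varied by the limma F test, against 8.91% of all genes. Gata2 varied most (adjusted p = 4.55e-09, 7th of all genes by p-value), Trhr (0.0157) and Lhx3 (0.0334) passed, and Pitx1 did not (0.0567). In short days Gata2 was 9.06 and 9.63 at ZT8 and 9.70 and 9.74 at ZT16, and its next arrays, at ZT20, were 10.87 and 11.12. The range between its lowest and highest group mean was 1.65, against 0.65 for Trhr, 0.57 for Pitx1 and 0.58 for Lhx3. Trhr was lowest at ZT4 (8.10 and 7.94) and highest at ZT12 (8.55 and 8.79), and its call was lost without ZT12 replicate 2 (adjusted p = 0.145). Lhx3's call was lost without any of 5 of the 12 short-day arrays (highest adjusted p = 0.116, without ZT8 replicate 1).

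Under long days none of the 4 varied, against 1.63% of all genes. Gata2 came nearest (adjusted p = 0.129) and ranged from 9.78 at ZT20 to 10.28 at ZT4. The test of the difference in course between long and short days passed for Gata2 (limma adjusted p = 5.88e-08), Pitx1 (0.0121) and Lhx3 (0.0418), and not for Trhr (0.0524), against 4.3% of all genes. Pitx1's call was lost without short-day ZT8 replicate 1 (adjusted p = 0.0791) or long-day ZT8 replicate 1 (0.0871), and matched by clock time (0.438). Lhx3's was lost without any of 11 of the 24 arrays and matched by clock time (0.648). A second Gata2 probe set, at a mean of 7.94, also passed in short days (9.47e-08) and for the difference in course (1.86e-06).

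On the first long day the mean of Gata2 was still highest at ZT20, with 10.65 and 10.69 in advance and 10.87 and 10.93 in delay. In advance the ZT0 arrays, at 10.52 and 10.66, overlapped those of ZT20. Gata2 varied over the day in advance (limma adjusted p = 0.00378) and in delay (0.000416), where 2.58% and 1.52% of all genes did. The advance call was lost without advance ZT8 replicate 1 (adjusted p = 0.0556). Thus the highest group mean lay at ZT20 on both first long days, as in short days, though in advance it was not separated from ZT0. After 2 weeks of long days the ZT20 mean was the lowest of the 6. By the clock, however, ZT20 fell at 23 h in these long days and at 3 h in short days. At 3 h the long-day Gata2 mean was 10.06 (ZT0). At 23 h it was 9.78 (ZT20), against 9.72 in short days (ZT16). Trhr varied in advance (2.19e-05) and not in delay (0.927), and neither Pitx1 nor Lhx3 passed in these conditions. The range between the lowest and highest Lhx3 group mean in delay was 0.0545.

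The change over the first 4 h of extra light was then set against short days. First-day mice were 6 weeks old and short-day mice 8 weeks old. A level difference shared by both times drops out of this comparison. A daily course that differs with age or set of mice cannot be told apart from light. In advance, the lamps went on at ZT16, so mice taken at ZT20 had 4 h of light that short-day mice spent in the dark. Trhr stood at 8.65 and 8.58 at ZT16 and at 9.63 and 9.66 at ZT20 in advance, against 8.24 and 8.18 at ZT16 and 8.38 and 8.20 at ZT20 in short days. Both advance ZT20 arrays exceeded every other Trhr array of the study. The 4 h change of Trhr was thus 1.03 in advance and 0.08 in short days, a difference of 0.95 ± 0.19 SE, or 1.93-fold (limma adjusted p = 0.0109, 23rd of all genes by p-value). Of all genes, 0.22% passed, and Trhr and Gata2 were 2 of those 40. Trhr's call was lost without replicate 2 of short-day ZT20 (adjusted p = 0.115), advance ZT16 (0.0928) or advance ZT20 (0.0764). The dim second probe set gave 0.05 ± 0.16 and did not pass.

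For Gata2 the difference had the opposite sign, because its level rose in both conditions and rose less in advance. Gata2 was 10.38 and 10.22 at ZT16 and 10.65 and 10.69 at ZT20 in advance, against 9.70 and 9.74 at ZT16 and 10.87 and 11.12 at ZT20 in short days. The 4 h change was 0.37 in advance and 1.28 in short days, a difference of -0.91 ± 0.19 (limma adjusted p = 0.0194). The advance arrays were higher at ZT16, ahead of the extra light, and lower at ZT20, so both times contribute to that difference. It was lost without any of 5 of the 8 arrays (highest adjusted p = 0.248, without short-day ZT20 replicate 2), and the second Gata2 probe set gave -0.51 ± 0.20 (adjusted p = 0.71). Pitx1 (-0.05 ± 0.26) and Lhx3 (-0.06 ± 0.21) did not pass. Measured from ZT16 in the same way, none of the 4 passed at ZT0, ZT4, ZT8 or ZT12 of the advance day, against 0%, 0.0055%, 0.011% and 0% of all genes in limma. Between 810 and 2058 genes had an unadjusted p under 0.05 at these times.

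In delay, ZT8 to ZT12 was the first 4 h of light after dusk. None of the 4 members passed, against 0.0385% of all genes. Trhr was 8.76 and 8.84 at ZT8 and 8.98 and 8.95 at ZT12 in delay, against 8.11 and 8.32 at ZT8 and 8.55 and 8.79 at ZT12 in short days, a difference of changes of -0.29 ± 0.19 (adjusted p = 0.70). Its 95% interval, -0.67 to 0.09, ends below the Trhr difference in advance. The test of the difference between both light responses passed for Trhr (1.24 ± 0.26, limma adjusted p = 0.0347, against 0.159% of all genes), while the median over all genes was -0.11. It was lost without any of 12 of its 16 arrays (highest adjusted p = 0.15, without short-day ZT8 replicate 1). For Gata2 it was -0.56 ± 0.27 and did not pass (adjusted p = 0.479). Both light responses were set against short-day mice of another age, at different times and so with different arrays. Over ZT12 and ZT16 of delay together, none of the 4 members passed, against 6.11% of all genes. Of the 14 measured genes of the thyrotropin axis, 2 rose in the advance step, against 0.22% of all genes passing in either direction. They were Eya3, a coactivator of Tshb in the pars tuberalis (1.62 ± 0.26, limma adjusted p = 0.000685), and Dio2, the deiodinase that activates thyroid hormone (1.07 ± 0.20, adjusted p = 0.00563). The difference was 0.30 ± 0.55 for Tshb and 0.06 ± 0.20 for Cga, and neither passed.

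**Figure D3:**
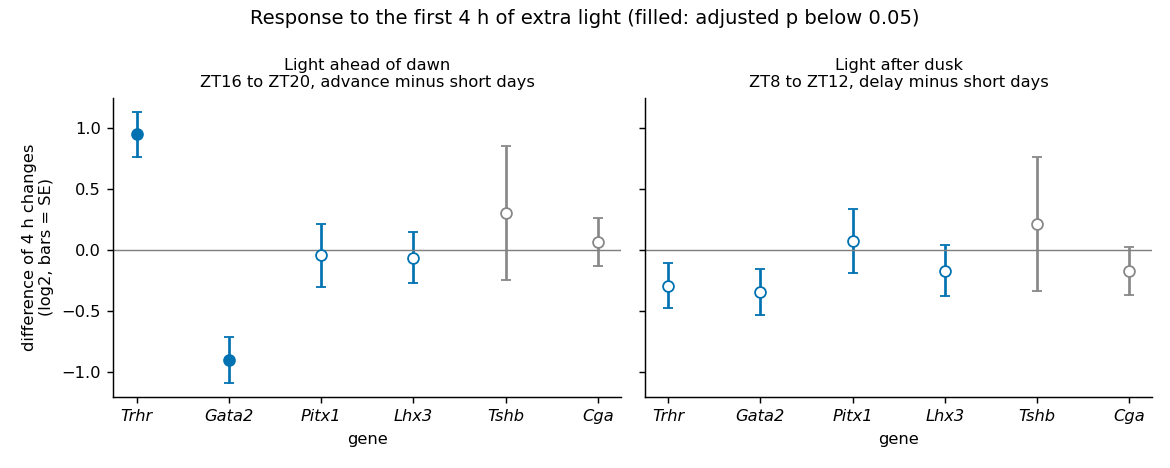
Change over the first 4 h of extra light minus the change over the same hours in short days, in log2 units with SE, for the 4 members and the thyrotropin subunits Tshb and Cga (grey). Left, advance; right, delay. Filled points had an adjusted p below 0.05: Trhr at 0.95 and Gata2 at -0.91 in advance, and none in delay.

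The growth protocol has sampling of the delay day begin at its lights-on, ZT0, so its ZT0, ZT4 and ZT8 arrays were read as ahead of the extra light, since their labels give no day. On that reading, first-day mice differed from short-day mice before the extra light. At advance ZT16 and delay ZT0, ZT4 and ZT8 together, Trhr was 0.55 ± 0.07, Gata2 0.57 ± 0.07 and Pitx1 0.35 ± 0.09 higher than at the same times in short days (limma adjusted p = 3.52e-08, 2.33e-08 and 0.00219). The Lhx3 difference was 0.15 ± 0.07 and did not pass (0.0902). Of all genes 48.8% passed here, in either direction. Of 14 hypothalamic neuron markers, 0 rose and 7 fell, with a median of -0.32, against 0.01 over all genes. Mice of 6 weeks are also set against mice of 8 weeks. Age, set of mice and make-up of the punch therefore cannot be told apart in this comparison. Between advance and delay, which share the age, none of the 4 passed over ZT0, ZT4 and ZT8, against 8.75% of all genes. With all 4 conditions ordered by day mean, Trhr ran from long days through advance (9.01) and delay (8.84) to short days, and Pitx1 from long days through delay (9.47) and advance (9.35) to short days. Gata2 was highest in advance and delay (10.34 and 10.33), and Lhx3 in delay (8.16) and advance (8.04). The arrays of neighbouring conditions in these orders overlapped in every case.

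The 2 arrays of a group differed together in the transcription factors. Short-day ZT8 replicate 1 had the lowest level of all 48 arrays in Gata2 (9.06), Pitx1 (8.49) and Cga (13.21), and its Lhx3 was 7.49, against 7.82 in replicate 2. Over the 24 groups, the difference between replicate 2 and replicate 1 correlated between Gata2 and Pitx1 (Pearson r = 0.73, Spearman rho = 0.71), Gata2 and Lhx3 (0.59 and 0.65) and Pitx1 and Lhx3 (0.66 and 0.66). With Cga the values were 0.66 and 0.70 for Gata2, 0.55 and 0.60 for Pitx1 and 0.66 and 0.73 for Lhx3. After Benjamini-Hochberg adjustment over 10 pairs, the permutation p of these 6 ran from 8e-04 to 0.00903 for r and from 0.000733 to 0.0039 for rho. Without the 2 groups farthest from the median they remained at 0.52 to 0.65. Within single conditions, of 6 groups each, they ran from 0.35 to 0.95. Pairs of other genes were not examined, so the permutation p-values cannot say whether such correlations are particular to these genes. The permutations also treated the 24 groups as independent. Across all genes, replicate differences correlated between times within long days (median r = 0.238) and delay (0.273), so these p-values may be too small.

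For Trhr the correlations with Gata2, Pitx1, Lhx3 and Cga were -0.08 to 0.39, with adjusted permutation p of 0.0903 to 0.912. Within single conditions they ran from -0.17 to 0.86, with the highest for Pitx1 in long days (0.86) and delay (0.66) and for Gata2 in long days (0.62) and delay (0.56). The difference between these and the other correlations was not tested. Replicate differences have the same arrays behind both genes, and what differs between the pools, such as the share of pars tuberalis in the punch, was not measured. With the Cga level as a covariate, added after the data had been seen, the long-day change was 0.81 for Trhr, 0.55 for Pitx1 and -0.39 for Lhx3, and all passed. The variation of Lhx3 in short days (adjusted p = 0.678) and the differences in course of Pitx1 (0.612) and Lhx3 (0.523) did not pass with it. Gata2 still varied in short days (2.93e-09).

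**Figure D4:**
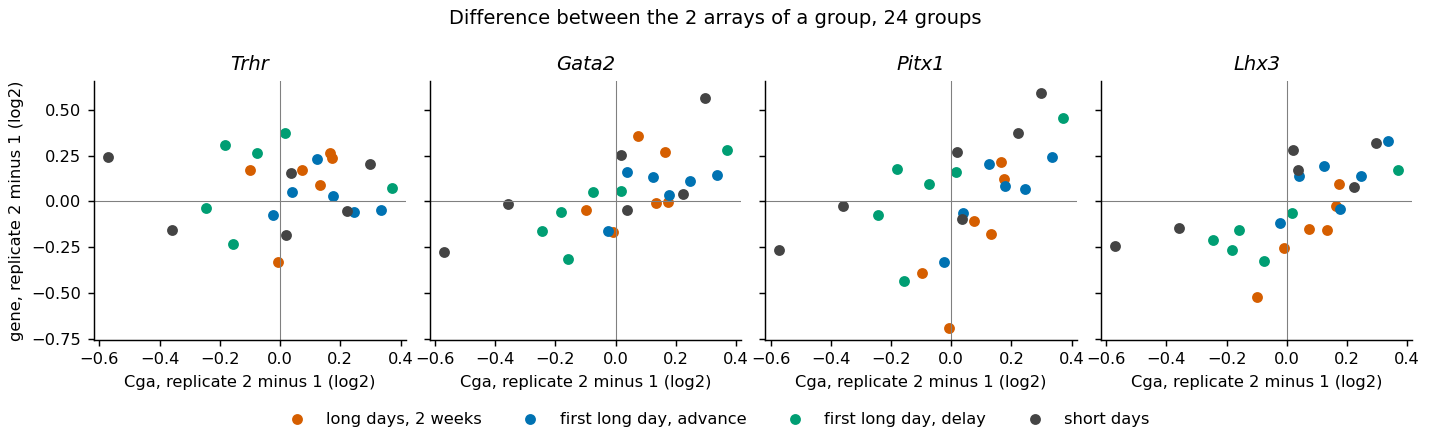
Difference between replicate 2 and replicate 1 of each of the 24 groups, in log2 units, for the 4 members against Cga. Colours mark the condition. The correlation with Cga is 0.66 for Gata2, 0.55 for Pitx1, 0.66 for Lhx3 and 0.02 for Trhr.

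Markers of other cells are given beside the shares of all genes, of which 17.6% rose and 29.1% fell in long days and 8.91% varied over the short day. Of 11 endothelial markers, 1 rose and 6 fell in long days, and 5 varied over the short day. Their mean level per array had a lowest, median and highest value of 7.98, 8.08 and 8.16 in long days, against 7.92, 8.20 and 8.51 in short days. Of 6 blood and mast cell markers 2 rose and 0 fell, and their mean ran from 6.34 to 6.54 in long days, against 6.27 to 6.49 in short days. Of 8 pars distalis hormone markers 1 rose and 3 fell, and 0 varied over the short day. Their mean ran from 7.07 to 9.11 in long days, against 7.05 to 9.17 in short days. Over the short day 6 of 7 meninges and fibroblast markers, 3 of 8 tanycyte markers and 0 of 14 hypothalamic neuron markers varied. The part of these cells in the Gata2, Trhr or Lhx3 differences was not tested.

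The other genes of the thyrotropin axis moved both ways. Of 14 measured, 5 rose and 3 fell in long days, against 17.6% and 29.1% of all genes, with a median change of -0.01, against -0.03 over all genes. Trhde, an enzyme that degrades thyrotropin-releasing hormone, rose by 1.08 ± 0.06. Dio2 rose by 1.02 ± 0.06 and Mtnr1a, a melatonin receptor, by 0.90 ± 0.16. Trh, the ligand, was at a mean level of 6.67 and Trhr2, a second receptor gene of the mouse, at 6.68, and their changes of -0.07 ± 0.08 and -0.02 ± 0.06 did not pass. Of the hormone's subunits, Tshb rose by 3.56 ± 0.16, and the Cga change of 0.03 ± 0.06 did not pass.

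Of 17 measured genes of the Gq pathway, through which Trhr signals, 2 rose and 9 fell, against 17.6% and 29.1% of all genes, with a median of -0.11, against -0.03 over all genes. Plcb1, a phospholipase C, rose by 0.34 ± 0.04. Gna11, a Gq-class alpha subunit, fell by 0.43 ± 0.04, Arrb2, an arrestin, by 0.41 ± 0.06 and Prkcb, a protein kinase C, by 0.38 ± 0.04. In the advance step none of the 17 passed, against 0.22% of all genes.

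Of 26 measured pituitary lineage transcription factors, 7 rose and 10 fell, against 17.6% and 29.1% of all genes, with a median of -0.08, against -0.03. Six6 and Six3, homeobox factors of the developing pituitary and hypothalamus, fell by 0.59 ± 0.06 and 0.47 ± 0.06. Zfpm1 and Zfpm2, which bind GATA factors, fell by 0.51 ± 0.06 and 0.38 ± 0.05. None passed in the advance step, against 0.22% of all genes, and 6 varied over the short day, against 8.91%. The 5 other GATA genes were dim, with mean levels of 4.79 to 6.05, and none passed in long against short days or over the short day, where 46.7% and 8.91% of all genes did. Of 11 other LIM homeobox genes 2 fell, against 29.1% of all genes: Isl1 by 0.20 ± 0.04 at a mean level of 11.17, and Lhx8 by 0.19 ± 0.05 at a dim 4.46.

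The genes whose 24 group means ran closest to those of each member were described by Pearson r among 13909 genes with a mean level of at least 6. They share arrays and conditions with the members, so r carries no test. For Trhr these were Ppp2r1b, Bzw1 and Hhip (each r = 0.91), for Gata2 Angpt2, Plekhg1 (both 0.80) and Prss23 (0.77), for Pitx1 Cat (0.85), Ppm1j (0.83) and Emc2 (0.82), and for Lhx3 Pan2 (0.93), Gm32031 (0.92) and Pdgfrb (0.91). With each condition's mean taken off, Hhip (0.83), after Dram1 (0.84), stayed among the closest 3 of Trhr, with Pde10a (0.79), and Angpt2 (0.79) among those of Gata2. None of the members was among the closest 3 of another: the highest r between members was 0.52, of Gata2 and Lhx3, or 0.76, of Pitx1 and Lhx3, with the condition means taken off.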

How the data were processed

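Arrays of 48 pools of mouse pars tuberalis were analysed from the authors' deposited table of log2 values, made with RMA in R 2.8.0 per the submitters' processing notes, so background correction, normalization and summary came before deposit. Of 45101 probe sets, 34958 carried 1 gene symbol, 932 several and 9211 none. Each of 18193 genes was taken from its single-symbol probe set of highest mean. A mean for each of 24 groups was fitted with limma 3.58.1 in R 4.3.3, with a trend in the variance and 24 residual degrees of freedom. Tests were two-sided, with Benjamini-Hochberg adjustment across all genes and a threshold of 0.05, and F tests addressed variation over the day. The procedure was tested on simulated data. Promoter motifs were searched in RefSeq windows. Alternatives were other probe sets, centring, a filter on dim genes, variance model, array weights, replicate block, covariates, clock-time matching and arrays left out. The members, lists and comparisons were chosen with earlier results of these data known. Named genes were the members, the 3 most like each, up to 4 of each list with the largest changes among those that passed, and Tshb, Cga, Trh and Trhr2.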

Additional observations from a re-analysis of the deposited data

Results flagged for a closer look

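Effects of the same contrast differed between times of day or between lighting conditions in 4 results. The change between long and short days depended on ZT for Gata2 (limma adjusted p = 5.88e-08), which was -1.21 ± 0.13 at ZT20 and 0.89 ± 0.13 at ZT8. It depended on ZT for Pitx1 as well (adjusted p = 0.0121), with 1.34 ± 0.19 at ZT8 and 0.19 ± 0.19 at ZT20. For Lhx3 (adjusted p = 0.0418) it was -0.74 ± 0.15 at ZT20 and 0.17 ± 0.15 at ZT8. The Pitx1 and Lhx3 calls were both lost when matched by clock time and with Cga as covariate. That of Lhx3 was also lost without any of 11 of the 24 arrays. Over the first 4 h of extra light, Trhr changed by 0.95 ± 0.19 ahead of dawn and -0.29 ± 0.19 after dusk, relative to short days. These differed (limma adjusted p = 0.0347), but the call was lost without any of 12 of its 16 arrays. The second Trhr probe set gave 0.28 (adjusted p = 0.749). First-day mice were also younger than short-day mice, so light cannot be told apart from age or set of mice. With 2 arrays a group and 12 a condition, no group was of a size in which single arrays were screened for outlying values.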

How the results depend on the processing

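The change of Trhr and of Pitx1 between long and short days passed under all 14 alternatives run beside leaving out single arrays, and that of Lhx3 under 12. That of Gata2 passed under 6. Values of opposite sign to that reported belong to results that had not passed, except Trhr at ZT12 and ZT16 with the dimmer probe set. The cause of a lost or gained call was not tested. Counts are set against those of the reported model, and Cga as a covariate was chosen after seeing the data. Bare times stand for long minus short days, and a pair of times for the advance day. The 24 arrays behind a long-day change and the 8 behind a step, with dim second probe sets of Trhr and Lhx3, limit what could be seen.

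Trhr with the dimmer probe set gave 0.0014 for ZT0 (adjusted p = 0.996), -0.065 for ZT12, -0.0086 for ZT16, 0.20 for ZT20 (adjusted p = 0.254), 0.050 for the advance step (adjusted p = 0.977), -0.16 for ZT16 to ZT8, -0.20 for ZT16 to ZT12, 0.28 for the step difference (adjusted p = 0.749), -0.080 for advance minus delay, 2.58 for the short-day course (F) (adjusted p = 0.216) and 0.52 for the advance course (F) (adjusted p = 0.978). Gata2 with the dimmer probe set gave 0.082 for the long-day change (adjusted p = 0.268), -0.10 for ZT16, -0.51 for the advance step (adjusted p = 0.71), 0.31 for ZT16 to ZT4 and 0.00094 for the step difference. Pitx1 with the dimmer probe set gave -0.021 for the delay step, 0.0030 for the delay evening and 4.51 for the course difference (F) (adjusted p = 0.0837). Lhx3 with the dimmer probe set gave -0.095 for the long-day change (adjusted p = 0.139), -0.11 for ZT0 (adjusted p = 0.639), -0.25 for ZT4 (adjusted p = 0.191), -0.032 for ZT20 (adjusted p = 0.914), 0.15 for the advance step, 0.25 for ZT16 to ZT0, 0.21 for ZT16 to ZT4, 0.0098 for advance minus delay, 1.06 for the short-day course (F) (adjusted p = 0.652) and 0.85 for the course difference (F) (adjusted p = 0.829). Lhx3 with arrays centred on their median gave 4.77 for the course difference (F) (adjusted p = 0.0519). Trhr with only genes of mean level 6 or more gave 4.67 for the course difference (F) (adjusted p = 0.0445). With no variance trend, the number passing over all genes was 1 against 7 for the delay step. Trhr with array weights gave 4.35 for the short-day course (F) (adjusted p = 0.0743). Gata2 with array weights gave 0.13 for the long-day change (adjusted p = 0.061). Pitx1 with array weights gave 6.88 for the advance course (F) (adjusted p = 0.0043). Lhx3 with array weights gave 3.43 for the short-day course (F) (adjusted p = 0.151), 4.21 for the advance course (F) (adjusted p = 0.0433) and 3.99 for the course difference (F) (adjusted p = 0.115). With array weights, the number passing over all genes was 1313 against 2920 for ZT16, 0 against 1 for ZT16 to ZT4, 181 against 1111 for the delay evening, 643 against 1621 for the short-day course (F) and 2026 against 470 for the advance course (F). Trhr with a replicate block over all arrays gave 5.23 for the course difference (F) (adjusted p = 0.0296). Pitx1 with a replicate block over all arrays gave 4.04 for the short-day course (F) (adjusted p = 0.0481). With a replicate block over all arrays, the number passing over all genes was 2 against 1 for ZT16 to ZT4, 1 against 0 for ZT16 to ZT12, 1837 against 1111 for the delay evening and 44 against 29 for the step difference. Trhr with a replicate block within conditions gave 5.09 for the course difference (F) (adjusted p = 0.0324). Pitx1 with a replicate block within conditions gave 4.34 for the short-day course (F) (adjusted p = 0.0354). Lhx3 with a replicate block within conditions gave -0.36 for ZT16 (adjusted p = 0.0496). With a replicate block within conditions, the number passing over all genes was 1668 against 992 for ZT12, 1 against 0 for ZT16 to ZT0, 5 against 1 for ZT16 to ZT4, 2 against 0 for ZT16 to ZT12, 11 against 7 for the delay step, 2388 against 1111 for the delay evening, 45 against 29 for the step difference, 2838 against 1621 for the short-day course (F), 736 against 470 for the advance course (F), 497 against 276 for the delay course (F) and 1265 against 782 for the course difference (F). Trhr with the actin signal as covariate gave 0.47 for ZT0 (adjusted p = 0.0769) and 1.20 for the step difference (adjusted p = 0.0594). Gata2 with the actin signal as covariate gave 0.092 for the long-day change (adjusted p = 0.434) and -0.045 for ZT16 to ZT8. Lhx3 with the actin signal as covariate gave -0.33 for ZT0 (adjusted p = 0.293), 0.10 for ZT16 to ZT0 and 0.21 for the comparison ahead of extra light (adjusted p = 0.0236). With the actin signal as covariate, the number passing over all genes was 5006 against 8502 for the long-day change, 873 against 3630 for ZT0, 1160 against 2948 for ZT8, 1788 against 2920 for ZT16, 1494 against 3564 for ZT20, 86 against 1111 for the delay evening, 18 against 29 for the step difference and 934 against 1592 for advance minus delay. Trhr with Gh and Prl as covariates gave 0.39 for ZT12 (adjusted p = 0.129). Gata2 with Gh and Prl as covariates gave 0.090 for the long-day change (adjusted p = 0.303) and 0.051 for advance minus delay. Pitx1 with Gh and Prl as covariates gave 0.024 for the advance step, 0.088 for the delay evening, 0.23 for the comparison ahead of extra light (adjusted p = 0.112) and 4.97 for the short-day course (F) (adjusted p = 0.0326). Lhx3 with Gh and Prl as covariates gave 0.011 for ZT16 to ZT0 and 4.15 for the course difference (F) (adjusted p = 0.105). With Gh and Prl as covariates, the number passing over all genes was 1969 against 4030 for ZT4, 562 against 992 for ZT12, 2309 against 3564 for ZT20, 1 against 0 for ZT16 to ZT12 and 705 against 1592 for advance minus delay. Trhr with the 6 arrays rich in Gh or Prl left out gave 0.21 for ZT12 (adjusted p = 0.741) and -0.010 for ZT16 to ZT12. Gata2 with the 6 arrays rich in Gh or Prl left out gave 0.15 for the long-day change (adjusted p = 0.0852) and -0.91 for the advance step (adjusted p = 0.0521). Pitx1 with the 6 arrays rich in Gh or Prl left out gave 1.05 for ZT12 (adjusted p = 0.0507), 0.082 for the delay evening and 3.33 for the course difference (F) (adjusted p = 0.261). Lhx3 with the 6 arrays rich in Gh or Prl left out gave -0.51 for ZT4 (adjusted p = 0.0696), -0.013 for the step difference and 2.91 for the course difference (F) (adjusted p = 0.318). With the 6 arrays rich in Gh or Prl left out, the number passing over all genes was 2031 against 4030 for ZT4, 1630 against 2948 for ZT8, 82 against 992 for ZT12, 0 against 1 for ZT16 to ZT4, 0 against 7 for the delay step, 56 against 1111 for the delay evening, 9 against 29 for the step difference, 1022 against 1621 for the short-day course (F), 105 against 296 for the long-day course (F) and 311 against 782 for the course difference (F). Trhr with long-day ZT16 and ZT20 replicates 2 left out gave 5.04 for the course difference (F) (adjusted p = 0.0366). Gata2 with long-day ZT16 and ZT20 replicates 2 left out gave 0.083 for the long-day change (adjusted p = 0.248), -0.036 for ZT16 and 5.98 for the long-day course (F) (adjusted p = 0.0299). Lhx3 with long-day ZT16 and ZT20 replicates 2 left out gave 4.33 for the course difference (F) (adjusted p = 0.0657). With long-day ZT16 and ZT20 replicates 2 left out, the number passing over all genes was 1180 against 2920 for ZT16 and 19 against 7 for the delay step. Trhr with Cga as covariate gave 0.44 for ZT12 (adjusted p = 0.0689) and 1.23 for the step difference (adjusted p = 0.0548). Gata2 with Cga as covariate gave 0.35 for ZT0 (adjusted p = 0.0183), -0.20 for ZT16 to ZT8, -0.091 for ZT16 to ZT12 and -0.37 for advance minus delay (adjusted p = 0.0354). Pitx1 with Cga as covariate gave -0.13 for ZT16 to ZT12, -0.60 for advance minus delay (adjusted p = 0.0245) and 1.58 for the course difference (F) (adjusted p = 0.612). Lhx3 with Cga as covariate gave -0.20 for ZT8, -0.19 for ZT16 to ZT8, -0.087 for ZT16 to ZT12, -0.038 for the step difference, -0.49 for advance minus delay (adjusted p = 0.0187), 0.17 for the comparison ahead of extra light (adjusted p = 0.0279), 1.08 for the short-day course (F) (adjusted p = 0.678) and 1.89 for the course difference (F) (adjusted p = 0.523). With Cga as covariate, the number passing over all genes was 1590 against 2948 for ZT8, 2270 against 3564 for ZT20, 1 against 0 for ZT16 to ZT0, 568 against 1592 for advance minus delay, 480 against 1621 for the short-day course (F), 191 against 296 for the long-day course (F) and 389 against 782 for the course difference (F). Pitx1 with matching by clock time gave 3.01 for the course difference (F) (adjusted p = 0.438). Lhx3 with matching by clock time gave 1.82 for the course difference (F) (adjusted p = 0.648). With matching by clock time, the number passing over all genes was 85 against 782 for the course difference (F). Gata2 with replicates 1 alone gave 0.14 for the long-day change (adjusted p = 0.583). Lhx3 with replicates 1 alone gave -0.24 for the long-day change (adjusted p = 0.0657). Gata2 with replicates 2 alone gave 0.13 for the long-day change (adjusted p = 0.561).

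Replicate numbers are not said to pair arrays. The difference between the 2 arrays of a group correlated across genes between times with a median r of 0.238 in long days, 0.0698 in advance and 0.273 in delay, against 0.0328 in short days. The block changed the calls listed with it and no other call of a member.

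Trhr with 1 array left out ran from -0.14 to 0.014 for ZT16 to ZT0, -0.039 to 0.20 for ZT16 to ZT12, 0.86 to 1.04 for the advance step and 1.12 to 1.37 for the step difference. Trhr further ran from 3.66 to 5.72 for the course difference (F), 0.47 to 0.64 for ZT0, 0.33 to 0.58 for ZT12 and 3.17 to 6.03 for the short-day course (F). Gata2 with 1 array left out ran from -0.075 to 0.20 for ZT16 to ZT12, -0.28 to 0.28 for ZT16 to ZT8, -0.069 to 0.035 for advance minus delay and -1.03 to -0.78 for the advance step. Gata2 further ran from 0.088 to 0.18 for the long-day change, -0.036 to 0.32 for ZT16 and 5.34 to 8.07 for the advance course (F). Pitx1 with 1 array left out ran from -0.015 to 0.36 for ZT16 to ZT0, -0.13 to 0.24 for ZT16 to ZT12, -0.37 to 0.23 for ZT16 to ZT8 and -0.23 to 0.14 for the advance step. Pitx1 further ran from -0.41 to 0.18 for the step difference, -0.11 to 0.085 for the delay evening, -0.22 to 0.37 for the delay step and 4.30 to 9.61 for the course difference (F). Pitx1 further ran from 2.89 to 5.86 for the short-day course (F). Lhx3 with 1 array left out ran from -0.17 to 0.16 for ZT16 to ZT0, -0.053 to 0.19 for ZT16 to ZT12, -0.15 to 0.17 for ZT16 to ZT8 and -0.20 to 0.078 for the advance step. Lhx3 further ran from -0.053 to 0.27 for the step difference, 3.29 to 6.94 for the course difference (F), 0.11 to 0.19 for the comparison ahead of extra light and -0.79 to -0.27 for ZT0. Lhx3 further ran from -0.67 to -0.51 for ZT4 and 3.14 to 5.22 for the short-day course (F). Counts over all genes with 1 array left out ran from 0 to 427 for ZT16 to ZT0, 0 to 507 for ZT16 to ZT12, 0 to 427 for ZT16 to ZT4 and 0 to 280 for ZT16 to ZT8. The counts further ran from 825 to 1842 for advance minus delay, 18 to 334 for the advance step, 10 to 111 for the step difference and 139 to 2631 for the delay evening. The counts further ran from 0 to 6 for the delay step, 499 to 1456 for the course difference (F), 1133 to 3434 for ZT0 and 188 to 579 for ZT12. The counts further ran from 626 to 3821 for ZT16, 1938 to 2645 for ZT20, 1540 to 4337 for ZT4 and 475 to 3474 for ZT8. The counts further ran from 172 to 273 for the delay course (F) and 901 to 2765 for the short-day course (F).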
